A study of Homo sapiens with 12 samples.

Results

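PCSK1N, CLEC11A, DAPK3, FOXK2 and CCDC9 are 5 genes of 12479 protein-coding genes with at least 1 N4-acetylcytidine (ac4C) peak in SW620 cells. They were chosen by the peak score and the listing of their regions: each holds a region with a very high score that was listed in every library of a single group. The region of PCSK1N, CLEC11A and DAPK3 was listed only in control libraries, and that of FOXK2 and CCDC9 only in NAT10-knockdown libraries. The data were obtained by acetylated RNA immunoprecipitation sequencing (acRIP-seq), in which fragmented RNA is pulled down with an antibody against ac4C and sequenced, so that antibody-bound stretches of RNA appear as peaks. SW620 is an established human colorectal cancer cell line. The 3 control libraries came from SW620 cells labelled shControl, with genotype WT, and the 3 NAT10-knockdown libraries from SW620 cells labelled shNAT10, with genotype NAT10 knockdown. Both groups carried a lentiviral short hairpin RNA (shRNA) and were kept as stable puromycin-selected lines. More than 1 shRNA against NAT10 was made in the study, and which was used for acRIP-seq is not given in the sources used here, nor is it stated whether the replicates were separate cultures. The input libraries were not used here.

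NAT10 is the enzyme known to write ac4C. The mark is well established in ribosomal and transfer RNA, and in messenger RNA it has been linked to stability and translation. The 5 genes belong to no common pathway. PCSK1N encodes proSAAS, a secreted granin-like protein that inhibits the prohormone convertase PCSK1. CLEC11A encodes a secreted C-type lectin that acts as a growth factor for blood-forming and bone-forming cells. DAPK3, also called ZIP kinase, encodes a serine/threonine kinase of the death-associated family that phosphorylates myosin light chains. FOXK2 encodes a forkhead transcription factor that recruits the deubiquitinase BAP1 to chromatin. CCDC9 encodes a coiled-coil protein that is a probable component of the exon junction complex, which marks spliced messenger RNA.

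Each library had a list of between 17877 and 28752 peaks with a position, a strand and a score. The score started at 50, and 7.85% to 14.1% of a library's peaks stood at 3100 or more, almost all at exactly 3100. A score of 3100 lay between the 92.7 and the 96.0 percentile of its library, and differences among such peaks cannot be seen. The lists hold no read counts, so depth is unknown, and a peak that is not listed is one that did not reach the list, which is not a measured absence of ac4C. A weaker peak and less of the mRNA itself cannot be told apart in these lists. Of the epithelial genes looked at, EPCAM, VIL1, CDX2 and KRT8 had a peak in all 6 libraries. CDH17 had a peak in 3 and LGALS4 in 2 of the libraries, and KRT18, KRT20 and CDX1 had none. Of the genes of other cells, VIM had 1 peak in each library, COL1A1 had 0, 1 and 3 in control and 2, 0 and 0 in the knockdown, and PTPRC, PECAM1 and COL1A2 had none.

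The 5 genes held 81 peaks, 40 in control and 41 in NAT10-knockdown libraries, all on the strand of the gene, with 0 peaks on the opposite strand of their spans. Merging the overlapping peaks of all libraries gave 20 regions in these genes. Of these regions, 3 were listed in all control and no knockdown libraries, 2 in all knockdown and no control libraries, 8 in all 6 libraries and 7 in some other set of libraries. A score of 3100 or more was held by 60 of the 81 peaks, among them all 15 peaks of the one-group regions, which were chosen for it. Of the 66 other peaks, 45 stood at 3100 or more, 17 of 31 in control and 28 of 35 in knockdown libraries. Their width ran from 148 to 3305 bases with a median of 362. The median width over a whole library lay between 189 and 228 bases.

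**Figure D1:**
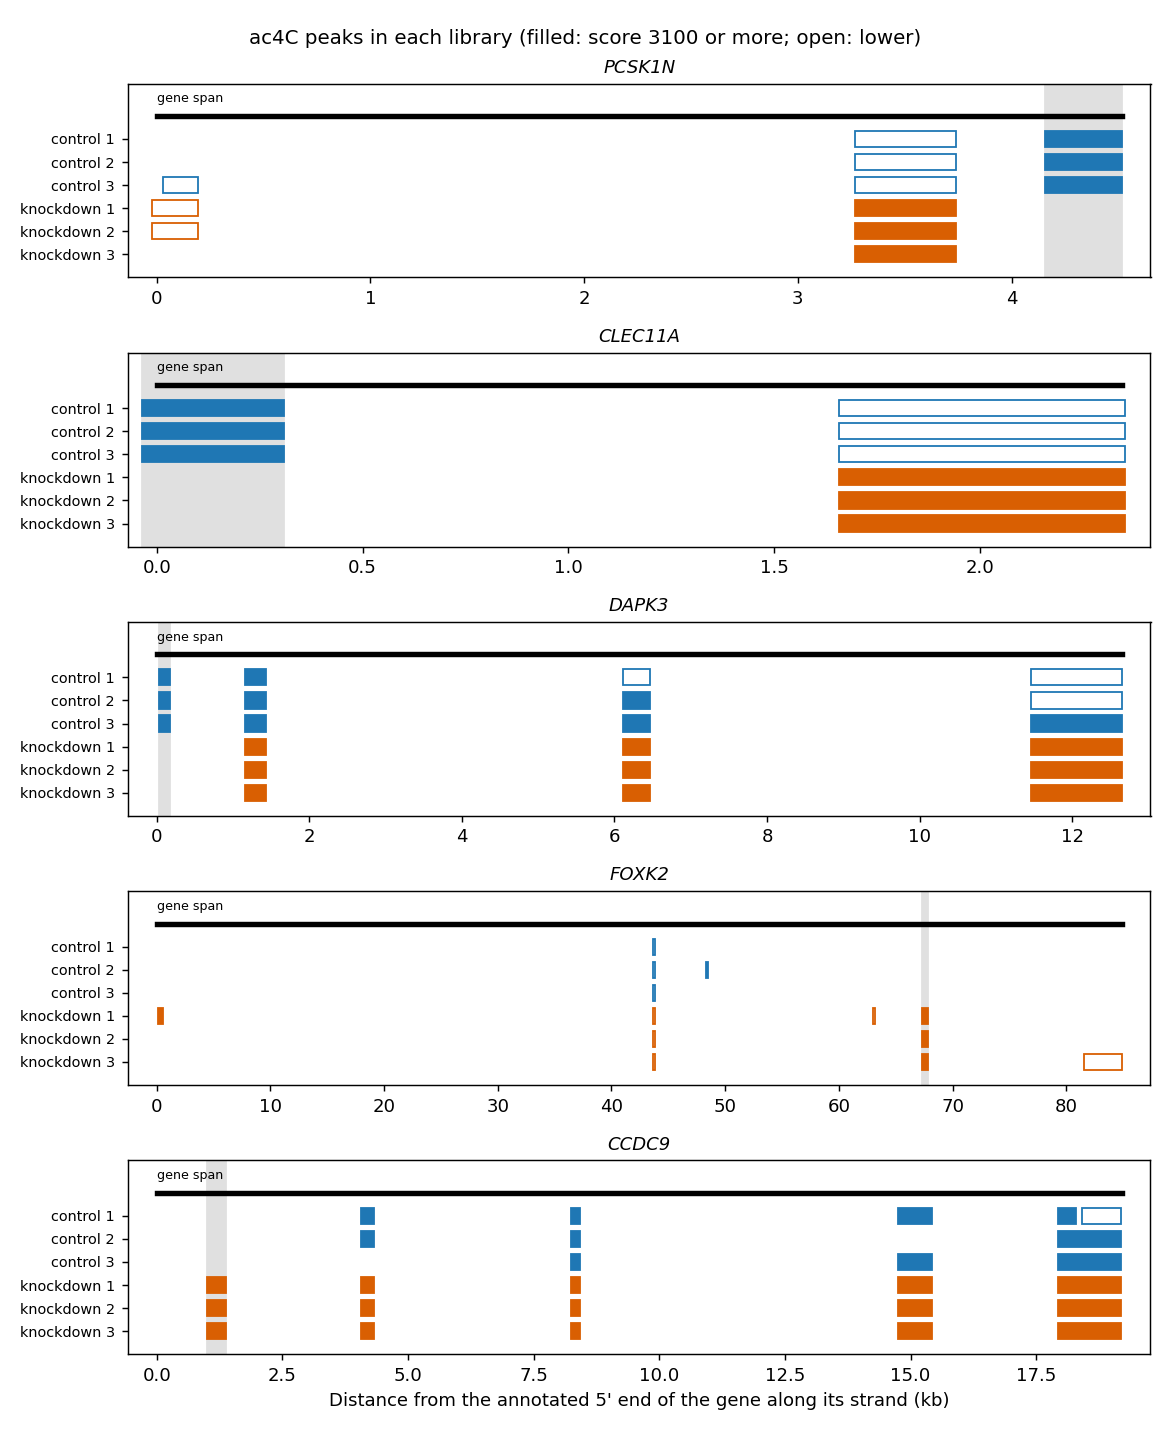
Peaks of the 5 genes in the 3 control (blue) and 3 NAT10-knockdown (orange) libraries, 1 panel per gene, by distance in kb from the annotated 5' end along the strand of the gene. Filled boxes are peaks with a score of 3100 or more, open boxes have lower scores, the black line is the gene span and grey marks the region listed in one group only. A reader should see that the grey region lies at the 3' end of PCSK1N, at the 5' end of CLEC11A and DAPK3, and inside FOXK2 and CCDC9.

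Where a peak edge fell inside the promoter window of the RefSeq table (GRCh38.p14, 250 bases before to 50 bases after the annotated start), the 30 bases around it are printed to show where the peak begins. This was possible for the one-group regions of CLEC11A and DAPK3 and for the weak 5' peaks of PCSK1N, which had 2 different edges. The 15 bases in lower case precede the peak and the 15 in capitals are its first bases, read 5' to 3' on the strand of the gene. Between 4 and 6 of the 15 capitals were cytosines, the base that carries the mark. The sequence is that of the reference genome.
CLEC11A, chr19:50723314-50723343, plus strand, all 3 control libraries: gggcggggagagacaCACACAGAGAAGCAG
DAPK3, chr19:3971056-3971085, minus strand, all 3 control libraries: gcttctggaggcggcGGCGGTGGCCAGCGC
PCSK1N, chrX:48835619-48835648, minus strand, knockdown replicates 1 and 2: gggggcctggttccgGGCGTGCGCAGCCGC
PCSK1N, chrX:48835567-48835596, minus strand, control replicate 3: tcgccccggcactgcGCACTTGCCAGCCAG
The promoter windows of the 5 genes differed in base composition. The G and C content was 79.0% for FOXK2, 71.7% for DAPK3, 68.3% for PCSK1N, 62.7% for CCDC9 and 58.0% for CLEC11A. The median over 15843 protein-coding genes with a window was 62.7%.

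The values that chose the genes are given first, as a description and with no test. Of 41696 merged regions in the series, 141 (0.338%) were listed in all control and no knockdown libraries, and 343 (0.823%) in all knockdown and no control libraries. The lowest score over the 3 libraries was 3100 in 3 of the 141 control-only regions, and these are the regions of PCSK1N, CLEC11A and DAPK3. The next control-only region had a lowest score of 1501, and the median was 73.6. Among the 343 knockdown-only regions 9 had a lowest score of 3100, the next stood at 2518 and the median was 86.8. Those of FOXK2 and CCDC9 were 500 and 378 bases wide, in a range of 87 to 585 bases over the 9. Score alone does not separate these from the rest of the 9, some of which were wider and are not described here.

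PCSK1N lies on the minus strand of chrX:48831096-48835610. Its control-only region, chrX:48831094-48831455, was 362 bases wide and covered the last bases of the gene, from 4155 bases after the annotated 5' end to just past the annotated 3' end. Its score was 3138 in control replicate 1 and 3100 in control replicates 2 and 3, and no knockdown library listed a peak there. The nearest knockdown peak lay 413 bases upstream in all 3 knockdown libraries. It was the region chrX:48831869-48832341, 473 bases wide, which all 6 libraries listed with the same start and end. In that shared region the control libraries had scores of 293, 363 and 681, and every knockdown replicate had 3100. The groups did not overlap there, and the knockdown libraries were the higher ones, opposite to the neighbouring control-only region. At the 5' end a weak peak was listed in control replicate 3 with a score of 195 and in knockdown replicates 1 and 2 with scores of 125 and 61.6. It began 23 bases before the annotated start in knockdown libraries and 29 bases after it in control replicate 3, and ended at the same base in all of them.

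CLEC11A, on the plus strand of chr19:50723364-50725708, showed the mirror image in position. Its control-only region, chr19:50723329-50723672, began 35 bases before the annotated 5' end and was 344 bases wide. All 3 control libraries gave it a score of 3100. The knockdown libraries listed nothing within 1349 bases of it. The gene's other region, chr19:50725022-50725717, was 696 bases wide, reached past the annotated 3' end and had the same edges in all 6 libraries. Its score was 1430, 164 and 1713 in control replicates 1, 2 and 3 and 3100 in each knockdown library. As in PCSK1N, the peak that all 6 libraries listed had a higher score in every knockdown than in every control library. In CLEC11A the control-only peak lay at the other end of the gene, whereas in PCSK1N it lay next to the shared peak. Control replicate 2 stood apart from the other control replicates in the shared region, at the 36.1 percentile of its library against 84.3 and 79.7.

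DAPK3, on the minus strand of chr19:3958453-3971099, had 4 regions, each with a single pair of edges. The control-only region, chr19:3970921-3971070, was the narrowest of the one-group regions at 150 bases and began 29 bases after the annotated 5' end. Its score was 3100 in all 3 control libraries. The nearest knockdown peak lay 982 bases away, in the region chr19:3969674-3969938, where all 6 libraries had a score of 3100. The region chr19:3964631-3964991 in the middle of the gene had scores of 2928, 3100 and 3100 in control and 3100 in every knockdown library. The region at the 3' end, chr19:3958453-3959637, was 1185 bases wide, with scores of 1729, 3069 and 3100 in control and 3100 in every knockdown library. The groups overlapped in these regions. The listing in DAPK3 thus differed between the groups in 1 of 4 regions, and each library listed either 4 peaks (control) or 3 peaks (knockdown).

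FOXK2 spans 84871 bases on the plus strand of chr17:82519732-82604602. Its knockdown-only region, chr17:82587063-82587562, was 500 bases wide, lay 67331 bases after the annotated 5' end, and had a score of 3100 in all 3 knockdown libraries. The nearest control peak was 18861 bases away in control replicate 2 and 23514 bases away in control replicates 1 and 3, counted on the genome with introns included. The region lies within the span of FOXK2-AS1, a long noncoding RNA gene on the opposite strand. The peaks are listed on the strand of FOXK2, but how the authors assigned the strand is not given in the sources used here, so reads of the antisense gene cannot be told apart.
A single FOXK2 region was listed in all 6 libraries, chr17:82563354-82563548. Control libraries scored it at 1189, 1421 and 1185, and knockdown libraries at 2132, 1468 and 2628. Every knockdown score was higher, but the percentiles within the libraries, 81.7, 81.1 and 73.8 in control and 81.4, 79.0 and 85.2 in knockdown, overlapped. The other 4 regions of FOXK2 were each listed in 1 library. A peak of 477 bases near the 5' end, 99 bases after it, had a score of 3100 in knockdown replicate 1, and a peak 48322 bases after the 5' end had a score of 3100 in control replicate 2. A peak in knockdown replicate 1 with a score of 161 and a 3305-base peak at the 3' end in knockdown replicate 3 with a score of 142 were weak.

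CCDC9, on the plus strand of chr19:47256525-47275723, held 26 peaks, the most of the 5 genes, against 21 in DAPK3. Of the 26, 7 lay inside the span of INAFM1, a gene on the same strand, and cannot be given to either gene. Without these 7, CCDC9 had fewer peaks than DAPK3. The knockdown-only region of CCDC9, chr19:47257532-47257909, was 378 bases wide and began 1007 bases after the annotated 5' end. It had a score of 3100 in each knockdown library. The nearest control peak lay 2678 bases downstream in control replicates 1 and 2 and 6863 bases downstream in control replicate 3. The region that follows, chr19:47260588-47260839, was listed with a score of 3100 in every library except control replicate 3. The region chr19:47271274-47271953 was listed with a score of 3100 in every library except control replicate 2. All knockdown libraries listed the same 5 peaks, while no pair of control libraries listed the same set.
The remaining regions of CCDC9 were listed in all 6 libraries with a highest score of 3100, at chr19:47264773-47264946 and chr19:47274453-47275707. The second lies inside the span of INAFM1, a protein-coding gene on the same strand at the 3' end of CCDC9, so its peaks cannot be given to either gene. In control replicate 1 it was split into a peak of 3100 and a peak of 1482, and in the other libraries it was a single peak.

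**Figure D2:**
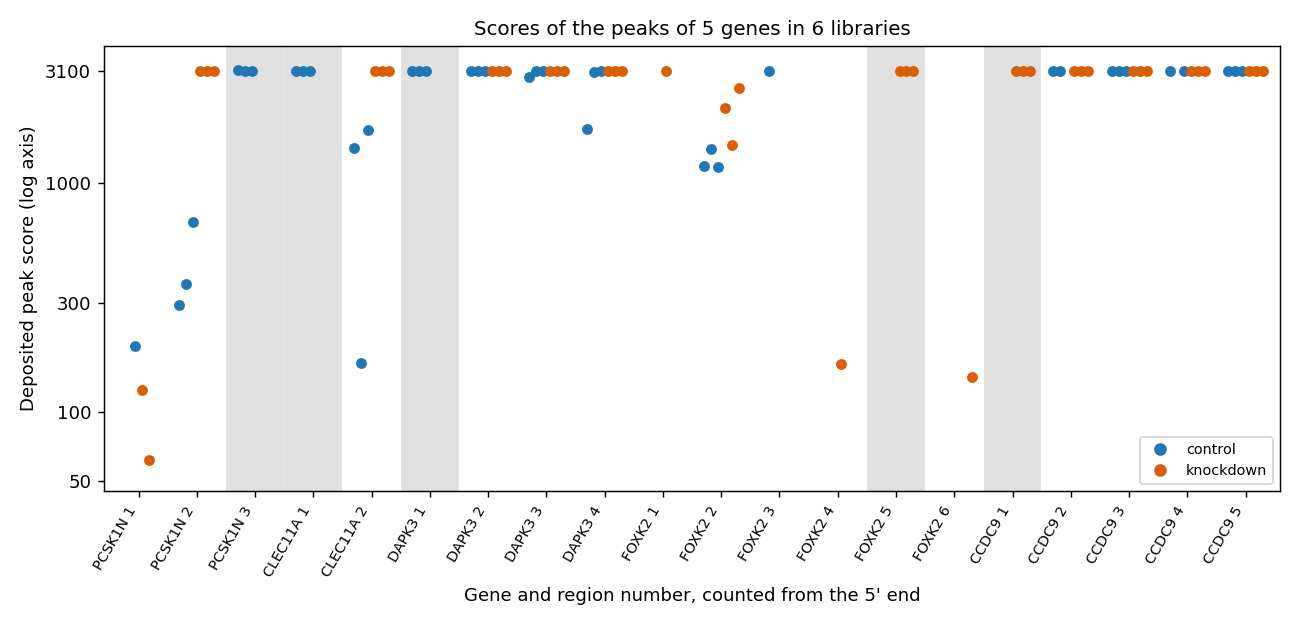
Deposited score (log axis) of each of the 20 regions of the 5 genes in the 3 control (blue) and 3 NAT10-knockdown (orange) libraries, numbered from the 5' end of each gene, with the highest peak taken where a library had more than 1. Grey marks the regions listed in one group only, and a library without a point listed no peak. Many points sit at 3100, and region 2 of PCSK1N and of CLEC11A has all knockdown points at 3100 above all control points.

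Among the 8 regions of these genes that all 6 libraries listed, those of PCSK1N and CLEC11A had a score percentile higher in every knockdown than in every control library, and 0 were higher in every control library. Over the 9210 regions listed in all 6 libraries of the series, 6.99% had every knockdown percentile higher and 4.05% had every control percentile higher. In each of the 8 regions except that of FOXK2, all knockdown libraries had a highest score of 3100. That score ranked at 94.0 in knockdown replicate 2 and at 93.2 in control replicate 3. Control scores of 3100 therefore could not be higher in every control library there. The 0 was nearly fixed by this ceiling and cannot be compared with the 4.05%. In PCSK1N the control libraries had a mean percentile of 58.2 ± 4.84 (SD, n = 3) and the knockdown libraries one of 93.3 ± 0.647 (SD, n = 3), a difference of 35.1 points that was larger than the control spread. In CLEC11A the control mean was 66.7 ± 26.6 (SD, n = 3) and the knockdown mean 93.3 ± 0.647 (SD, n = 3), a difference of 26.6 points that was about the size of the control spread. Without control replicate 2 the difference in CLEC11A, control minus knockdown, was -11.3 points. In FOXK2 the control mean was 78.9 ± 4.39 (SD, n = 3) and the knockdown mean 81.8 ± 3.13 (SD, n = 3), which is within the spread. In these regions of PCSK1N and CLEC11A all knockdown scores were at 3100, so their knockdown percentile and its SD give only how many peaks of each library tie at that score, and the size of both differences is that of a saturated measure. The median difference over the 9210 regions, knockdown minus control, was 0.70 points. In 1 region of DAPK3 and both regions of CCDC9 every score was at 3100 or more, so a difference could not be seen there. These values come from the comparison that chose the genes and were not tested.

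The edges of the peaks were nearly always shared. Of the 16 regions of these genes that more than 1 library listed, 14 had 1 start and 1 end in all the libraries that listed them, and so had all 5 one-group regions. The exceptions were the 5' region of PCSK1N and the last region of CCDC9. Over the series, identical edges were found in 68.8% of the regions listed in all 6 libraries, in 51.1% of the control-only and in 61.5% of the knockdown-only regions. These shares are over regions of any score. Among the 9 knockdown-only regions with a lowest score of 3100, all but the widest, of 585 bases, had identical edges. The 3 control-only regions at that score are those of these genes. Identical edges were thus usual at this score and not particular to these genes. The median lowest score was 73.6 in control-only and 86.8 in knockdown-only regions, far lower than in the one-group regions of these genes. Exon positions were not used here, so whether these edges are exon boundaries was not tested. No one-group region touched a peak of the other group, the nearest such peak being between 413 and 18861 bases away.
Over all control-only regions the median gap to the nearest knockdown peak on the same strand was 3430 bases, with quartiles of 1275 and 14972 bases. The gap was smaller than that of PCSK1N in 11 of the 141, than that of DAPK3 in 29 and than that of CLEC11A in 37, so that PCSK1N and DAPK3 lay below the lower quartile. Over all knockdown-only regions the median gap was 3339 bases, and it was smaller than that of CCDC9 in 153 of the 343 and than that of FOXK2 in 281.

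Shared peaks beside a one-group region were common. Each of the 5 genes had at least 1 region listed in all 6 libraries. Shared peaks may have been in view when the genes were chosen, so this is a description only. Every one-group region of the series with a lowest score of 3100 that lay in a protein-coding gene had a region listed in all 6 libraries in that gene. A shared region was thus not particular to these 5 genes. Most one-group regions of the series had far lower scores, so the shares that follow are not for genes with regions of like score. Of the 460 protein-coding genes with a one-group region, 262 (57.0%) also had a region listed in all 6 libraries, and of the 12479 genes with any peak 43.2% had one. This difference was not tested.

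A score of 3100 did not mean that a peak was listed in every replicate. In these genes 4 regions reached 3100 in a library of a group and were missing in another replicate of that group, 2 in FOXK2 and 2 in CCDC9, and none in PCSK1N, CLEC11A or DAPK3. The one-group regions were chosen for their listing in every replicate of a group, so they could not be among the 4. Over the series, 3312 regions reached 3100 in at least 1 control library, and 614 of these (18.5%) were missing in at least 1 other control library, 232 of them being listed in 1 control replicate alone. In the knockdown group it was 886 of 4425 (20.0%), and 516 (11.7%) were listed in 1 knockdown replicate alone.

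The numbers of peaks per library are given as a description. How often the counts of other genes separate the groups is not given here. The control libraries listed 2, 2 and 3 peaks in PCSK1N and the knockdown libraries 2, 2 and 1, with overlap between the groups. CLEC11A had 2 peaks in each control and 1 in each knockdown library, and DAPK3 had 4 and 3. In both genes the extra control peak is that of the control-only region that chose the gene. For FOXK2 the control libraries listed 1, 2 and 1 peaks, a mean of 1.33 ± 0.577 (SD, n = 3), and the knockdown libraries 4, 2 and 3, a mean of 3.0 ± 1.0 (SD, n = 3). For CCDC9 they were 5, 3 and 3 in control, a mean of 3.67 ± 1.15 (SD, n = 3), and 5 in every knockdown library. FOXK2 and CCDC9 overlapped between the groups. In CCDC9 the overlap came only from the region inside the span of INAFM1, which control replicate 1 listed as 2 peaks. The peaks of that region cannot be given to either gene. Without it and without the knockdown-only region that chose CCDC9, control replicate 1 and every knockdown library listed the same peaks. The groups then overlap as well. These counts include the regions that chose the genes.

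Partners and relatives of the 5 genes were looked at as 5 lists of 75 genes in all, counting peaks with their midpoint in the gene span on either strand. A peak was listed in some library for 60 of the 75 genes and in every library for 41. A knockdown-only region was found in 5 of them and a control-only region in 0. In the whole series 332 protein-coding genes had a knockdown-only and 139 a control-only region, and 3.69% of the genes with a peak had either.
In the list on prohormone processing, around PCSK1N, 12 of 16 genes had a peak and 2 a knockdown-only region. These were PCSK5, a proprotein convertase with 3, 5 and 3 peaks in the control libraries and 6, 5 and 4 in those of the knockdown, and CHGA, which encodes the granule protein chromogranin A, with 0, 1 and 0 control and 2, 1 and 1 knockdown peaks. Among C-type lectins and the integrin receptor genes of CLEC11A, 8 of 14 had a peak, 1 in all 6 libraries, and 0 had a one-group region. The gene with peaks in all 6 was CLEC16A, with 5, 12 and 9 control and 9, 5 and 7 knockdown peaks. CLEC18A, CLEC18B and CLEC18C are near-identical copies, so their peaks are uncertain.
In the list on death-associated kinases and their targets, 12 of 14 genes had a peak. DAPK2, a calmodulin-regulated relative of DAPK3, held the knockdown-only region of this list, with 1, 2 and 0 control and 3, 1 and 1 knockdown peaks. AATF, a transcriptional partner of DAPK3, had the most peaks of the list, with 4, 5 and 5 control and 9, 5 and 2 knockdown peaks. In the FOXK2 list 12 of 14 genes had a peak and 11 had one in all 6 libraries. Its knockdown-only regions lay in ASXL1, the partner of BAP1 in the PR-DUB complex, with 1 peak in each control library and 2, 1 and 2 knockdown peaks, and in SIN3B, a corepressor scaffold. SIN3B had 4, 5 and 5 control and 7, 9 and 9 knockdown peaks, counts that include the knockdown-only region for which it was named. FOXK1, the close relative of FOXK2, had 5, 4 and 6 control and 6, 5 and 5 knockdown peaks. In the list on the exon junction complex and RNA decay, around CCDC9, 16 of 17 genes had a peak, 13 in all 6 libraries, and 0 had a one-group region. ACIN1, a splicing factor tied to that complex, had the most peaks of the list, with 7, 9 and 8 in control and 9, 7 and 6 in the knockdown.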

How the data were processed

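The authors deposited 1 list of ac4C peaks for each of the 6 immunoprecipitation libraries, restricted to mRNA, in which each peak carries a score. Peak names are those of MACS, and the labels name the build GRCh38. The aligner, the caller's version and settings, the meaning of the score and the use of the input are not given in the sources used here. The deposited positions count starts from 0 and no other column was needed. Here they are counted from 1.

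Peaks were given to a gene when the midpoint lay in its GRCh38.p14 RefSeq span on the same strand. Of the peaks inside 1 gene of known strand, 99.0% to 99.1% per library were on that strand. Regions are runs of peaks, from all libraries and either strand, that share 1 base or more. A gap is the number of bases between a region and the nearest peak of the other group. Scores were ranked within a library, with ties at their middle rank. Members, lists and alternatives were chosen with earlier results of these data known. Genes of the lists were named when they had a one-group region or the most peaks (at most 2 per list shown). Some items that the choice by score selects are not reported here. Because the genes were chosen on the comparison of control with knockdown, no test was made. The merging code was tested on simulated lists over 41696 regions for control against knockdown, where 199 of 200 planted regions were called. The score filter, equal peak numbers, coverage, strand, distance, joining and each library left out were tried as alternatives. Scripts ran in Python 3.11.15 (numpy 2.4.6, pandas 2.3.3, matplotlib 3.10.9).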

Additional observations from a re-analysis of the deposited data

How the results depend on the processing

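In 5 of 5 genes the region stayed listed by a single group, and by each library of it, under every alternative run, including each library left out, peaks within 100 or 200 bases counted as present and a filter that kept the 50% highest-scored peaks. Leaving out a library or keeping the highest scores could not change this listing, because the genes were chosen for it. The unchanged listing is therefore no separate support. The gaps were 413 bases for PCSK1N, 982 for DAPK3, 1349 for CLEC11A and 2678 for CCDC9 in every setting, also with each library left out, and for FOXK2 from 18861 to 23514 bases with 1 library left out, the larger value without control replicate 2. The difference in peaks per gene, control minus knockdown, of CLEC11A went from 1 to 0.667 under the score filter, that of FOXK2 from -1.67 to -1 and that of PCSK1N from 0.667 to 1, while DAPK3 and CCDC9 kept theirs. In CLEC11A the filter removes a shared peak of control replicate 2 from the count and not the control-only one. With 1 library left out the difference in peaks ranged from 0.333 to 0.833 in PCSK1N, from -2.17 to -1.17 in FOXK2 and from -2 to -1 in CCDC9, and stayed at 1 in CLEC11A and DAPK3. The score rank difference of shared peaks, control minus knockdown, ranged with 1 library left out from -37.8 to -33.3 points in PCSK1N, from -35.4 to -11.3 in CLEC11A, the smallest without control replicate 2, from -4.41 to -0.44 in FOXK2, and in DAPK3 from 0.72 to 2.08, from -0.80 to 0.72 and from -5.04 to -1.72 in its regions from the 5' end. In both regions of CCDC9 it ranged from 0.72 to 2.08. In these and in the first of the DAPK3 regions the highest score was 3100 in every library. Their ranges therefore give only how many peaks of each library tie at that score, and a difference could not be seen there. Over the series the 484 one-group regions became 263 under the score filter (86 control-only and 177 knockdown-only) and 4163 with a difference of at least 2 libraries, a looser criterion. With 1 library left out, which also loosens it, they numbered from 936 to 1357. No paired analysis was possible because the values come from no test. Since depth is unknown, an unlisted peak has no upper limit.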
